A study of Mus musculus with 2 samples.

Results

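Lipogenesis-high white adipocytes are the adipocyte nuclei of mouse visceral fat that hold the largest share of RNA from 6 genes of fatty acid synthesis, Acaca, Acly, Fasn, Elovl6, Acss2 and Me1. They were chosen by this share, measured in the counts analysed here, and number 1635 of the 24492 nuclei called in 2 libraries (6.68%) and of the 15058 that passed the filters on quality (10.9%). The study compared fat depots of young and old mice by single-nucleus RNA sequencing, and the libraries used here are those of the visceral, gonadal depot of untreated female C57BL/6J mice aged 2 months, with 1 library from each of 2 mice, named replicate 1 and replicate 2. All nuclei compared with each other came from the same libraries, so no group differed in age, sex, strain, depot or treatment. Libraries of other depots and ages were not analysed here. The sample labels give 10x Genomics as the platform and adipocytes as the cell type, while the protocol in the same labels describes nuclei on the Singleron GEXSCOPE system. By the rule used here, 6543 of the 15058 nuclei that passed the filters were adipocytes.

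White adipocytes store fatty acids as triglyceride, and they obtain them both from circulating lipoproteins and by de novo lipogenesis, the building of fatty acids from acetyl-CoA. Citrate leaves the mitochondrion and is split by ATP citrate lyase (Acly) into cytosolic acetyl-CoA, which acetyl-CoA carboxylase (Acaca) turns into malonyl-CoA and fatty acid synthase (Fasn) joins into palmitate with the reducing power of NADPH, part of it made by malic enzyme (Me1). The transcription factors SREBP1c, the product of Srebf1, and ChREBP, the product of Mlxipl, are known to drive these genes in response to insulin and to glucose, and the related factor SREBP2 drives the genes of cholesterol synthesis.

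A unique molecular identifier (UMI) marks each RNA molecule, and the tables hold the number of UMIs of every gene in every nucleus as counts. Nuclei entered with more than 500 genes, more than 1000 UMIs and a mitochondrial share below 15%, which left 2833 of 7344 nuclei in replicate 1 and 12225 of 17148 in replicate 2. No doublet caller was run, and the gate cannot remove droplets with a pair of adipocyte nuclei. Of these, 1466 and 5077 were adipocytes by a gate on 3 sums of UMIs, namely at least 10 from 8 adipocyte genes, at most 2 from 6 genes of other cell types and at most 2 from the thermogenic genes Cidea, Esrrg and Ucp1. Within each library these nuclei were ranked by the percentage of their UMIs in the 6 lipogenic genes. The highest 25% form the lipogenesis-high class, with 366 nuclei in replicate 1 and 1269 in replicate 2. They were compared with the 733 and 2538 nuclei of the middle 50%, and the 367 and 1270 nuclei of the lowest 25%, the low class, show the step below the middle. Of the called barcodes, 85 occurred in both libraries, and 5 of these were lipogenesis-high in replicate 1, 7 in replicate 2 and 0 in both.

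The limit of the class is a rank and not a feature of the shares. The last nucleus inside it had 4.042% in replicate 1 and 4.506% in replicate 2, and the first outside had 4.036% and 4.505%. Median shares were 4.73% and 5.19% in lipogenesis-high nuclei, 3.01% and 3.52% in middle nuclei and 1.61% and 1.92% in low nuclei, in replicates 1 and 2, and the highest shares were 7.98% and 9.02%. Each share rested on many molecules, with a median of 184.5 and 362 lipogenic UMIs in a lipogenesis-high nucleus and 91 and 176 in a middle nucleus.

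**Figure D1:**
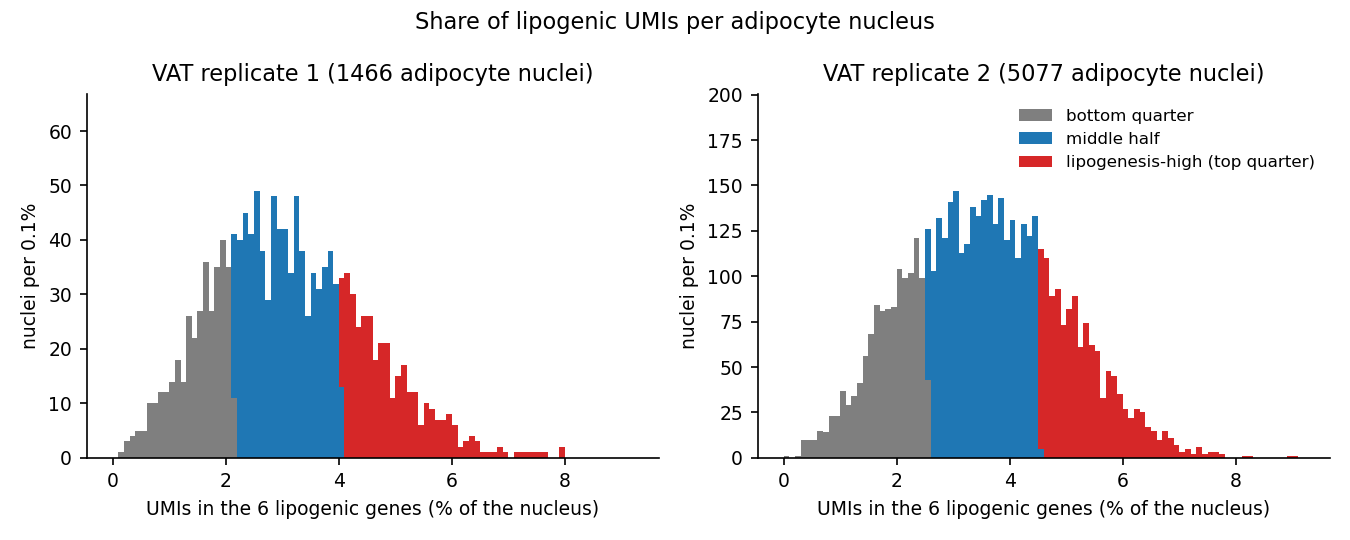
Share of UMIs in the 6 lipogenic genes (x axis, percent of a nucleus) in each adipocyte nucleus, as the number of nuclei per step of the axis (y axis), with 1 panel per library. Colours give the low, middle and lipogenesis-high classes, stacked. Both libraries form 1 broad peak, with medians of 3.01% and 3.52% in middle nuclei.

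Depth and the quality of the RNA differed between the classes. The median number of UMIs per nucleus was 2328, 3015 and 3719 in the low, middle and lipogenesis-high nuclei of replicate 1 and 3440.5, 4972.5 and 6845 in those of replicate 2, and the median number of genes was 1200, 1425 and 1620 in replicate 1 and 1786, 2176.5 and 2589 in replicate 2. The median mitochondrial share was 6.85%, 4.74% and 4.71% in replicate 1 and 0.442%, 0.303% and 0.216% in replicate 2, in the same order. Across the nuclei of a library, Spearman's rho between the lipogenic share and the UMIs of a nucleus was 0.264 (1466 nuclei) and 0.388 (5077 nuclei), and with the mitochondrial share it was -0.168 and -0.274, but the nuclei of a library share 1 mouse and both measures use the same UMIs. The summed UMIs were 2614174 and 14124526 in middle nuclei and 1586466 and 9009717 in lipogenesis-high nuclei. Since the classes differed in depth, each comparison was also run with classes formed within bands of equal depth, in which the median nucleus of each class had between 2942.5 and 2947 UMIs in replicate 1 and between 5069 and 5075 in replicate 2.

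The 6 lipogenic genes chose the nuclei, so their levels in these classes are a description with no test. Levels below are CPM, in which the summed counts of each class are scaled to an equal total. Together the 6 genes had 15119, 30730.2 and 49262 CPM in replicate 1 and 18463, 35686 and 53734 CPM in replicate 2, in the low, middle and lipogenesis-high classes. In the nuclei outside the gate, the 6 genes had 2906 to 3639 CPM in replicate 1 and 2685 to 3424 CPM in replicate 2 where genes of mesothelial, endothelial, fibroblast or immune cells reached at least 3 UMIs. Adipocytes set aside for their thermogenic genes held 34747 and 34820 CPM, near the middle class.

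Of the enzymes, Acaca (ENSMUSG00000020532, chr11:84020476-84292477, plus strand) makes the malonyl-CoA of the first committed step, and it had 7017, 12563 and 18793 CPM in replicate 1 and 9636, 16297 and 23153 CPM in replicate 2. Acly (ENSMUSG00000020917, chr11:100367165-100440756, minus strand) supplies acetyl-CoA from citrate and had 2192, 4241 and 5929.5 CPM in replicate 1 and 1718, 3928 and 5552 CPM in replicate 2. Fasn (ENSMUSG00000025153, chr11:120696672-120715995, minus strand) builds palmitate and had 2564, 3571 and 4597 CPM in replicate 1 and 1928, 2465 and 2687 CPM in replicate 2. Both genes rose in CPM from class to class in each library, as the ranking makes them do, but Fasn covered the smallest range of the 6. Elovl6 (ENSMUSG00000041220, chr3:129326004-129432144, plus strand) lengthens palmitate to stearate and had 461, 1480.0 and 3225 CPM in replicate 1 and 606, 1928 and 3765 CPM in replicate 2. Acss2 (ENSMUSG00000027605, chr2:155355679-155428016, plus strand) makes acetyl-CoA from acetate and had 1118, 3398 and 6433 CPM in replicate 1 and 2092, 4799 and 7693 CPM in replicate 2. Me1 (ENSMUSG00000032418, chr9:86462646-86578104, minus strand) makes NADPH in the cytosol and had 1767, 5476 and 10284 CPM in replicate 1 and 2483, 6269 and 10883 CPM in replicate 2. Positions are those of the gene bodies in GENCODE vM39 on GRCm39.

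The mix of the 6 genes is described in the same way, with no test, since their sum ranked the nuclei. Of the lipogenic UMIs, Elovl6 made up 3.05%, 4.82% and 6.55% in the low, middle and lipogenesis-high nuclei of replicate 1 and 3.28%, 5.4% and 7.01% in those of replicate 2. The part of Me1 was 11.7%, 17.8% and 20.9% in replicate 1 and 13.4%, 17.6% and 20.3% in replicate 2, and that of Acss2 was 7.39%, 11.1% and 13.1% and 11.3%, 13.4% and 14.3%. The parts of these 3 genes thus grew along the ranking in both libraries. Those of Acaca and Fasn shrank, Acaca from 46.4% to 40.9% and 38.1% and from 52.2% to 45.7% and 43.1%, and Fasn from 17.0% to 11.6% and 9.33% and from 10.4% to 6.91% and 5.0%. Acly had no common course, with 14.5%, 13.8% and 12.04% in replicate 1 and 9.31%, 11.01% and 10.3% in replicate 2.

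The genes of the gate chose the adipocytes, so their levels are again a description with no test. Lipogenesis-high nuclei had 1883 and 2257 CPM of Acsl1, which activates fatty acids, 2427 and 1452 CPM of Dgat2, which makes triglyceride, and 777 and 739.6 CPM of Plin1, the coat protein of the lipid droplet, in replicates 1 and 2. Middle nuclei had 993 and 886 CPM of Plin1, and 6 of the 8 adipocyte genes of the gate, Plin1, Cidec, Pde3b, Pnpla2, Adrb3 and Aqp7, had fewer CPM in lipogenesis-high than in middle nuclei of both libraries. Nuclei outside the gate with genes of immune cells had 122 and 41.8 CPM of Plin1. They were chosen with fewer than 10 UMIs of the 8 adipocyte genes, so a lower level follows from the choice. Ucp1, the uncoupling protein of thermogenic fat, stood at 5.04 and 0.777 CPM. Cidec, a protein that fuses lipid droplets, stood at 1608, 1229 and 816 CPM along the classes of replicate 1 and at 1197, 931 and 694 CPM along those of replicate 2. The limits of the gate are fixed numbers of UMIs, so a nucleus with few UMIs needs a larger share of adipocyte RNA to enter and may hold a larger share of RNA of other cells. Among adipocyte genes that the gate did not use, Pparg, the transcription factor of fat cell formation, stood at 4058 and 4563 CPM in lipogenesis-high nuclei.

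To ask whether the lipogenic genes rose together when none could raise itself, nuclei were ranked again by 5 of the 6 genes and the gene left out was read in the classes so formed. Of the 6 genes, 5 were higher in the upper class of the other genes, in both libraries, and Fasn did not pass. The tests are edgeR's quasi-likelihood tests on the UMIs summed per library and class, with the library as a block and Benjamini-Hochberg adjustment over all genes of each run. In these runs 1.33% of all genes were called higher when Acaca was left out, 1.74% without Acly, 1.88% without Fasn, 1.41% without Elovl6, 1.47% without Acss2 and 1.63% without Me1.

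Left out of the ranking, Elovl6 went from 1675 to 2862 CPM in replicate 1 and from 2144 to 3363 CPM in replicate 2, from the middle to the upper class, a log2 fold change of 0.82 ± 0.08 (SE, edgeR adjusted p = 1.39e-07). Acss2 went from 3493 to 6100.1 CPM in replicate 1 and from 4997 to 7164 CPM in replicate 2, with 0.78 ± 0.09 on the log2 scale (SE, edgeR adjusted p = 5.04e-07). Both upper values lay above both middle values for either gene, a pattern whose share among all genes was not counted. For Me1 the change was from 5813 to 9449.6 CPM in replicate 1 and from 6634 to 10011 CPM in replicate 2, or 0.75 ± 0.09 on the log2 scale (SE, edgeR adjusted p = 1.66e-10). Acly rose from 4285 to 5682 CPM in replicate 1 and from 3951 to 5377 CPM in replicate 2, or 0.55 ± 0.084 on the log2 scale (SE, edgeR adjusted p = 3.33e-05). Here the mice were close to each other at both levels. Acaca had 13054 and 16987 CPM in the middle and upper class of replicate 1 and 16978 and 21530.5 CPM in those of replicate 2, with 0.48 ± 0.088 on the log2 scale (SE, edgeR adjusted p = 0.00152). Fasn had 3678 and 4205 CPM and 2459 and 2602 CPM, a log2 fold change of 0.26 ± 0.082 (SE, edgeR adjusted p = 0.0726). The difference between the mice in Fasn was thus larger than the difference between its classes. At equal depth the 5 genes passed again, with log2 fold changes of 0.38 for Acaca, 0.45 for Acly, 0.63 for Elovl6, 0.66 for Acss2 and 0.61 for Me1.

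**Figure D2:**
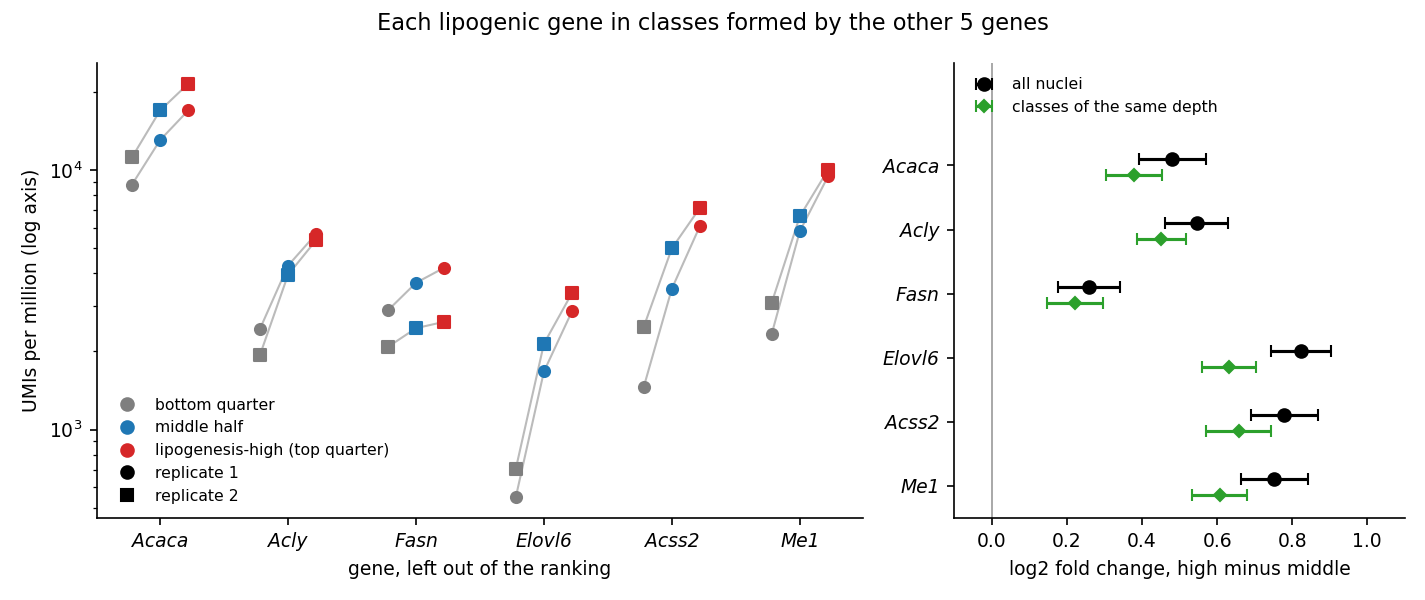
Each lipogenic gene in the classes that the other 5 genes formed. Left, CPM on a log axis in the low, middle and upper class of replicate 1 (circles) and replicate 2 (squares), lines joining the classes of a library, and right, the log2 fold change of the upper against the middle class with its SE, for all nuclei (black) and for classes of equal depth (green). Every line rises from class to class, and the fold changes with all nuclei run from 0.26 for Fasn to 0.82 for Elovl6.

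Beyond the genes of the rule and the gate, 15288 genes were tested between lipogenesis-high and middle adipocytes. By edgeR's quasi-likelihood test with the library as a block, 375 genes (2.45%) passed an adjusted p of 0.05, of which 238 were higher (1.56%) and 137 lower (0.896%) in lipogenesis-high nuclei, and DESeq2 called 180. These differences were mostly small in size, with a median log2 fold change of 0.53 among the higher and -0.76 among the lower genes, and 21 and 30 of them reached a log2 of 1 in size. The median of all genes was 0.01 after TMM scaling, which corrects library totals for a few very abundant genes, and -0.13 with plain library totals, a shift of 0.13. With plain totals, 514 genes passed, 135 higher and 379 lower, so that 26.3% of the calls were higher against 63.5% with TMM, and none of the 375 genes had the opposite sign. Fold changes include the TMM factors and so exceed the ratio of the CPM values beside them by about that shift.

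Of the 238 higher genes, 219 rose in CPM from low to middle to lipogenesis-high nuclei in both libraries, and 128 of the 137 lower genes fell along the same order. Of all 15288 genes, 1016 (6.65%) rose and 3750 (24.5%) fell in this way, in CPM that are not scaled by TMM. The calls themselves fix the step from middle to lipogenesis-high nuclei, so that only the step from low to middle nuclei adds to them. The low class entered the test only through the shared filter, scaling and estimates of spread. The median gene body was 46.2 kb long for the higher genes, 102 kb for the 132 lower genes with a gene body in GENCODE vM39, and 33.3 kb for all genes, and the median level was 160.2 CPM, 35.7 CPM and 14.4 CPM.

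Among the 12 genes with the largest rise, Prune2 had the highest level in the lipogenesis-high nuclei of both libraries. It encodes a protein of the BNIP2 family and went from 336 to 1361 CPM in replicate 1 and from 593 to 1384 CPM in replicate 2, a log2 fold change of 1.73 ± 0.12 (SE, edgeR adjusted p = 5.3e-11). Its level in low nuclei was 77.9 and 162 CPM, so that it rose along all classes and both mice met at the top. Lipg, which encodes endothelial lipase, an enzyme that frees fatty acids from lipoproteins, rose from 6.5 to 27.7 CPM in replicate 1 and from 9.35 to 25.1 CPM in replicate 2, with 1.74 ± 0.25 on the log2 scale (SE, edgeR adjusted p = 2.24e-05). Its UMIs came from 20 and 134 of the lipogenesis-high nuclei, and single libraries gave 2.18 in replicate 1 and 1.57 in replicate 2. Atp8a1, a flippase that moves phospholipids across membranes, rose from 95.2 to 233 CPM in replicate 1 and from 196 to 399 CPM in replicate 2, with 1.25 ± 0.10 on the log2 scale (SE, edgeR adjusted p = 5.03e-10). Adcy10, the soluble adenylyl cyclase, had a log2 fold change of 1.15 (edgeR adjusted p = 4.78e-09). Pgm3, an enzyme of the hexosamine pathway that makes the sugar donor of glycosylation, rose from 459 to 964 CPM in replicate 1 and from 723 to 1265 CPM in replicate 2, or 1.06 on the log2 scale (edgeR adjusted p = 6.97e-09). Also among them were Prss35 with 1.21, Ccn5, a secreted matrix protein, with 1.16, Als2cl with 1.07, Etl4 with 1.06, Ofcc1 with 1.05 and Rdh11, a retinol dehydrogenase, with 1.04. At equal depth all genes named here passed again, with log2 fold changes from 0.68 for Ofcc1 to 1.43 for Prune2.

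Several of the higher genes lie beside the lipogenic genes on the chromosome, a feature looked at after the values were known. Of the 36 tested genes within 100 kb of one of the 6 genes, 4 were higher (11.1%, against 1.56% of all genes) and 0 lower. Of these 4, 3 flank Me1 on chromosome 9, namely Pgm3 at a distance of 7.97 kb, the gene model Gm17530 at 33.4 kb and Prss35 at 38.9 kb. Gm17530 lies within the body of Pgm3 on the same strand, so these are not 3 separate places. The other, Odad4, overlaps the start of Acly on the opposite strand and went from 57.8 to 91.4 CPM in replicate 1 and from 92.0 to 163 CPM in replicate 2, with 0.90 on the log2 scale (edgeR adjusted p = 3.43e-05). All 4 passed as well where the nuclei were ranked without their lipogenic neighbour, with log2 fold changes of 0.95 for Pgm3, 0.99 for Gm17530, 1.04 for Prss35 and 0.96 for Odad4. Near Acaca, Fasn, Elovl6 and Acss2, 0 of 4, 0 of 9, 0 of 2 and 0 of 7 genes passed in edgeR. Pgm3 and Gm17530 lie past the end of Me1 on its strand, and Prss35 lies before its start on the other strand. Reads that run past the end of a gene would be counted in a neighbour that lies there, and their part in these values was not tested.

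Among the 12 genes with the largest fall, Pck1 encodes the cytosolic phosphoenolpyruvate carboxykinase that feeds glycerol synthesis in fasted fat. It fell from 181 to 52.9 CPM in replicate 1 and from 83.0 to 27.6 CPM in replicate 2, a log2 fold change of -1.53 ± 0.12 (SE, edgeR adjusted p = 3.62e-10), and its level in low nuclei was 412 and 211 CPM. At equal depth the log2 fold change was -0.99 (edgeR adjusted p = 2.03e-10), a log2 value over 1.5 times smaller in size. Nnat, neuronatin, a small membrane protein found in fat and brain, fell from 129.7 to 27.1 CPM in replicate 1 and from 14.8 to 5.99 CPM in replicate 2, with -1.73 ± 0.28 on the log2 scale (SE, edgeR adjusted p = 0.000144, DESeq2 adjusted p = 0.0881). Single libraries gave -2.17 in replicate 1 and -1.15 in replicate 2 for Nnat. In low nuclei it stood at 874 and 335 CPM, so that its RNA was concentrated at the lower end of the ranking in both mice. Spon1, which encodes the matrix protein spondin 1, fell from 80.3 to 28.4 CPM in replicate 1 and from 78.5 to 31.4 CPM in replicate 2, with -1.28 ± 0.16 on the log2 scale (SE, edgeR adjusted p = 2.3e-06). The fold changes of the other 9 were -1.79 for Emp1, -1.69 for Mxra8, -1.43 for Ighm, -1.29 for Timp4, -1.22 for Sparcl1, -1.20 for Cyp2f2, -1.12 for Csgalnact1, -1.11 for Palm and -1.11 for Inhbb. Some of these rest on few nuclei, and Emp1, for example, had a UMI in 82 middle and 11 lipogenesis-high nuclei of replicate 1 and in 46 and 16 of replicate 2. Single libraries differed by over 1.5 times from the joint value for Emp1 (-2.57 in replicate 1 and -0.87 in replicate 2), Mxra8 (-2.92 in replicate 1 and -1.28 in replicate 2), Timp4 (-2.19 in replicate 1 and -0.92 in replicate 2) and Csgalnact1 (-2.41 in replicate 1 and -0.81 in replicate 2). At equal depth Sparcl1, Cyp2f2 and Inhbb no longer passed (edgeR adjusted p = 0.652, 0.309 and 0.28).

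**Figure D3:**
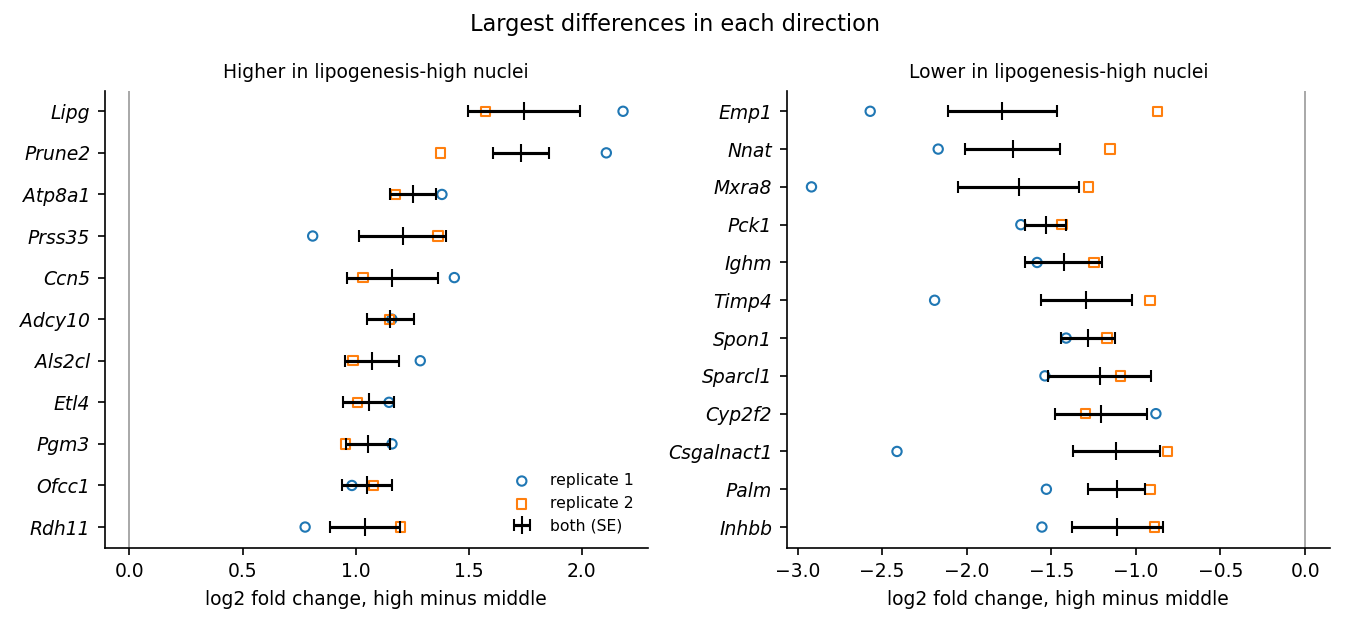
Log2 fold change (x axis, lipogenesis-high minus middle) of the named genes with the largest differences in each direction. Open symbols are single libraries, the bar is the joint estimate with its SE. All genes shown have the same direction in both libraries, and replicate 1 gives the larger size for most of the lower genes.

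Of 16 other genes of fatty acid synthesis and desaturation, all of them tested, 7 were higher and 0 lower, with a median log2 fold change of 0.48, where 1.56% of all genes were higher and their median was 0.01. Acacb, the acetyl-CoA carboxylase of the mitochondrial surface, rose from 798 to 1399 CPM in replicate 1 and from 1937 to 2559 CPM in replicate 2, with 0.73 ± 0.10 on the log2 scale (SE, edgeR adjusted p = 2.1e-05). Scd1, the stearoyl-CoA desaturase of adipose tissue, rose from 12346 to 15667 CPM in replicate 1 and from 4658 to 5575 CPM in replicate 2, with 0.42 ± 0.084 on the log2 scale (SE, edgeR adjusted p = 0.00216). The mice differed in Scd1 by more than its classes did, but the fold was close in both, 0.43 in replicate 1 and 0.41 in replicate 2. Its relative Scd2 gave 0.61, the elongase Elovl5 0.69, the acyl-CoA synthetase Acsl3 0.69 and Slc25a1, the carrier that brings citrate out of the mitochondrion, 0.44 (edgeR adjusted p = 8.36e-05, 9.56e-05, 8.96e-05 and 0.00504). Fads2, a desaturase of long fatty acids, also passed, with 0.62 (edgeR adjusted p = 0.0162). Thrsp, a small protein of lipogenic tissues, had 3242 and 3607 CPM in replicate 1 and 1916 and 2028 CPM in replicate 2 and did not pass (edgeR adjusted p = 0.174). At equal depth 8 of the 16 genes were higher, with a median of 0.34, and Acsl3 gave 0.40 (edgeR adjusted p = 0.0217). With plain library totals Fads2 did not pass (edgeR adjusted p = 0.0669).

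Of 14 regulators of lipogenesis, 2 were higher and 0 lower, where 1.56% of all genes were higher and 0.896% lower. With plain library totals 1 regulator was higher, and Insig1 did not pass (edgeR adjusted p = 0.0898). Mlxipl, which encodes the glucose-responsive factor ChREBP, rose from 1509.8 to 2045 CPM in replicate 1 and from 1879.7 to 2550.1 CPM in replicate 2, with 0.56 ± 0.088 on the log2 scale (SE, edgeR adjusted p = 0.000101). Insig1, which holds SREBP precursors in the endoplasmic reticulum and is itself a target of SREBP, rose from 518 to 632 CPM in replicate 1 and from 342 to 429.8 CPM in replicate 2, with 0.43 ± 0.10 on the log2 scale (SE, edgeR adjusted p = 0.0136). Srebf1 had 1848 and 1799.6 CPM in the middle and lipogenesis-high nuclei of replicate 1 and 975 and 919.7 CPM in those of replicate 2, a log2 fold change of 0.06 ± 0.09 (SE, edgeR adjusted p = 0.839) that is -0.06 with plain library totals. RNA of the ChREBP gene thus differed between the classes, while a difference in RNA of the SREBP1 gene was not detected.

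Cytosolic NADPH and its source, glucose, were covered by 18 genes, of which 7 were higher and 2 lower, with a median log2 fold change of 0.29. The shares over all genes were 1.56% higher and 0.896% lower, with a median of 0.01. The oxidative pentose phosphate pathway rose at both of its NADPH-making steps. G6pdx, the first enzyme, rose from 107 to 151 CPM in replicate 1 and from 124 to 163 CPM in replicate 2, with 0.56 ± 0.11 on the log2 scale (SE, edgeR adjusted p = 0.00232), and Pgd, the later one, rose from 602 to 759 CPM in replicate 1 and from 404 to 555 CPM in replicate 2, with 0.52 ± 0.094 (SE, edgeR adjusted p = 0.000651). Tkt and Taldo1, which return the sugars to glycolysis, gave 0.38 and 0.36 (edgeR adjusted p = 0.0114 and 0.029). In glycolysis, Pkm gave 0.71, Aldoa 0.48 and Hk2, which traps glucose as its phosphate, 0.38 (edgeR adjusted p = 3.43e-05, 0.00297 and 0.0174). The 2 lower genes were Pfkfb3, which makes an activator of phosphofructokinase and fell from 662 to 354 CPM in replicate 1 and from 385 to 266 CPM in replicate 2, with -0.57 ± 0.11 on the log2 scale (SE, edgeR adjusted p = 0.00128), and the glucose transporter Slc2a3, with -0.69 (edgeR adjusted p = 0.0481). Slc2a4, the insulin-responsive glucose transporter of fat and muscle, had 453 and 539 CPM and 259.9 and 289 CPM and did not pass (edgeR adjusted p = 0.0745). At equal depth Taldo1 and Slc2a3 did not pass, with 0.29 and -0.50 on the log2 scale (edgeR adjusted p = 0.104 and 0.308), and with plain library totals 4 genes of the list were higher and 2 lower.

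Cholesterol synthesis, a pathway with no gene in the rule, rose over most of its length. Of 16 genes, 14 were tested, and 9 were higher and 0 lower, with a median log2 fold change of 0.47 and a positive value for all 14. Among all genes tested, 1.56% were higher and 0.896% lower, and their median was 0.01. Cyp51, which demethylates lanosterol, rose from 168 to 310.1 CPM in replicate 1 and from 121 to 198 CPM in replicate 2, with 0.91 ± 0.10 on the log2 scale (SE, edgeR adjusted p = 2.41e-07). Lss, which makes lanosterol, rose from 89.9 to 174 CPM in replicate 1 and from 87.3 to 132 CPM in replicate 2, with 0.86 ± 0.12 (SE, edgeR adjusted p = 1.14e-05), and Sqle, which supplies its substrate, rose from 49.7 to 81.3 CPM in replicate 1 and from 47.4 to 76.9 CPM in replicate 2, with 0.83 ± 0.13 (SE, edgeR adjusted p = 0.00012). Sqle, Lss and Cyp51 act in this order in the pathway. Of the others, Mvd gave 0.69 and Fdft1, the squalene synthase, 0.59 (edgeR adjusted p = 0.00196 and 0.00502). Hmgcs1 and Pmvk, which act before them, also passed, with 0.48 and 0.43 (edgeR adjusted p = 0.0104 and 0.022). Single libraries gave 1.04 in replicate 1 and 0.34 in replicate 2 for Fdft1. At equal depth 8 of the 14 genes were higher, among them all those named here, and the summed level of the list was 1229 to 1764 CPM in replicate 1 and 1041 to 1327 CPM in replicate 2. DESeq2 called 5 of the list higher, and with plain library totals edgeR called 5.

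**Figure D4:**
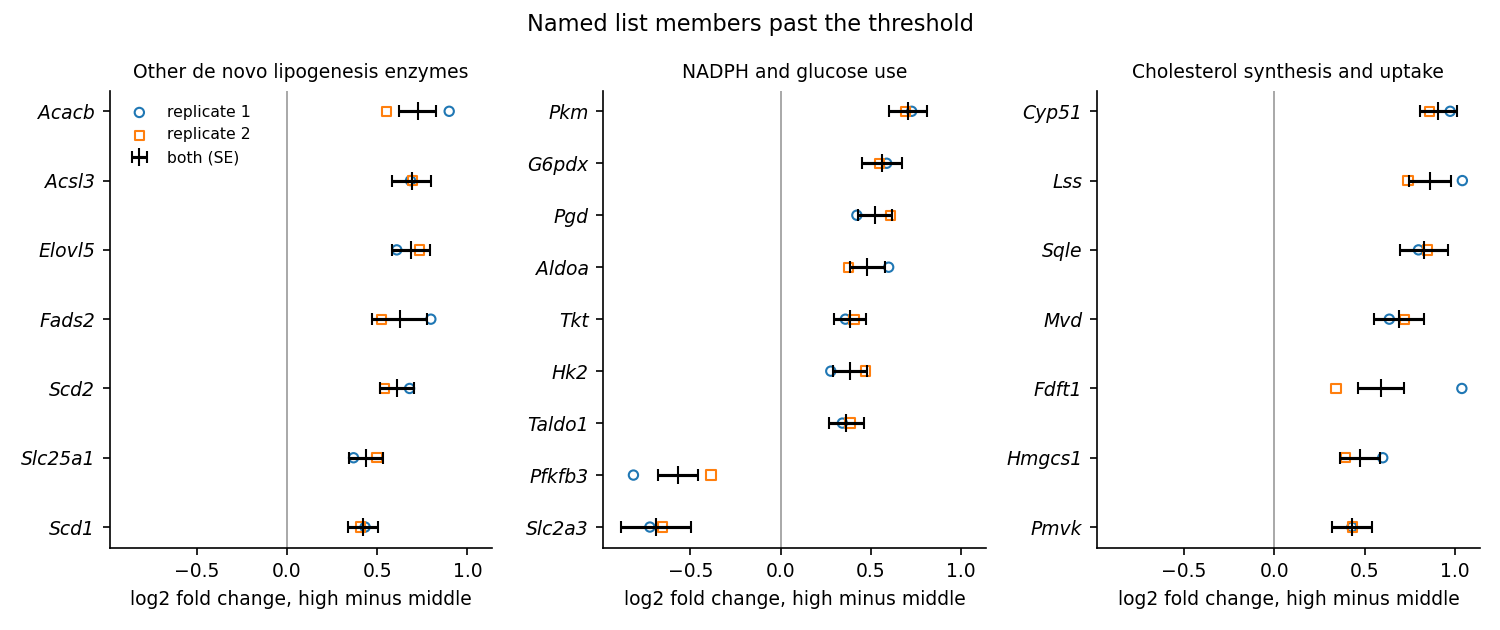
Log2 fold change (x axis, lipogenesis-high minus middle) of named members of 3 gene lists that passed the test, with 1 panel per list. Open symbols are single libraries, the bar is the joint estimate with its SE. All genes of fatty acid and cholesterol synthesis shown are above 0 in both libraries, from 0.42 for Scd1 to 0.91 for Cyp51, and Pfkfb3 and Slc2a3 are below 0 in both.

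Since genes of fatty acid and cholesterol synthesis and Mlxipl moved together, their promoters were searched for 3 short motifs of factors known to act on such genes. RefSeq promoters on GRCm38.p6 were found for 23 of the 31 genes looked for, including all 6 lipogenic genes, and the 250 bases before each start were read on both strands. The sterol element TCACNCCAC, which SREBP binds, occurred in 1.05% of all 32851 promoters of this length, the CCAAT box, CCAAT, which NF-Y binds, in 33.8%, and the E-box CACGTG in 6.02%. None of the 6 lipogenic genes had the sterol element or the E-box in the windows read, and 3 of them had a CCAAT box. A gene was counted where any of its starts matched, while the percentages are of promoters. Me1 had the box at only 1 of its starts. Fasn had 3 matches, of which CCAAT and ATTGG overlap in CCAATTGG. Acaca was read only at chr11:84195188-84195437, which was not shown to lie before the start of its gene body. Other starts were not read. Of the 9 cholesterol genes that passed, 5 had a promoter entry, and 1 of these, Hmgcs1, had the sterol element and all 5 a CCAAT box. Pmvk had the box at only 1 of its starts. Mlxipl has 2 starts, the upstream one with a CCAAT box and an E-box, and the downstream one with a sterol element. Fasn (chr11:120824548-120824797, minus strand), Hmgcs1 (chr13:119690101-119690350, plus strand) and Mlxipl (chr5:135089640-135089889 and chr5:135106641-135106890, plus strand) are shown with the matches in capitals, Fasn and Hmgcs1 as the promoters with the most matches among the lipogenic genes and the cholesterol genes that passed, and Mlxipl as the gene of ChREBP. A match is a run of letters and not evidence of binding.
Fasn: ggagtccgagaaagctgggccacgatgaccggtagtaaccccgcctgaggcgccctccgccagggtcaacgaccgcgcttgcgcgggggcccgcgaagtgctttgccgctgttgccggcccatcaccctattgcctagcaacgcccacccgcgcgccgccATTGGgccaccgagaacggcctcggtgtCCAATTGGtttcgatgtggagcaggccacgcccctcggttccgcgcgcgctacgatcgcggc
Hmgcs1: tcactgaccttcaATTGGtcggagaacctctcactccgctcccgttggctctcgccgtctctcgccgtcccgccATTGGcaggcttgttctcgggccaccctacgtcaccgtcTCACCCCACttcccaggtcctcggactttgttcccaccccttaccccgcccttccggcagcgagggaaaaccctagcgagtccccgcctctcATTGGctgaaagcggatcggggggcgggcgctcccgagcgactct
Mlxipl, upstream start: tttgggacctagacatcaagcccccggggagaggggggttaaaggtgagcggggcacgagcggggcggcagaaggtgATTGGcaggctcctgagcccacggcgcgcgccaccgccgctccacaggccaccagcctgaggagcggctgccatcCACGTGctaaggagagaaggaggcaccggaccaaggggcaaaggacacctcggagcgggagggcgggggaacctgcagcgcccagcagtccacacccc
Mlxipl, downstream start: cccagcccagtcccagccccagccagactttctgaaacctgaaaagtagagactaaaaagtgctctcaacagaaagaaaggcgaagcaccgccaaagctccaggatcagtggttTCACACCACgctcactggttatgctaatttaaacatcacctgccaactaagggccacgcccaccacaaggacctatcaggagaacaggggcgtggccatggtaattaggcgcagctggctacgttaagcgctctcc

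Calls in the next steps of fat storage went in both directions, where 1.56% of all genes were higher and 0.896% lower. Of 14 genes of triglyceride synthesis, 1 was higher and 2 were lower, with a median log2 fold change of 0.21 and a positive value for 11. At an unadjusted p under 0.05, 7 of them were higher and 2 lower, a threshold that 2015 of all 15288 genes passed in either direction. Gpam, which adds the first fatty acid to glycerol phosphate, rose from 1524 to 2046 CPM in replicate 1 and from 2013 to 2939 CPM in replicate 2, with 0.61 ± 0.094 on the log2 scale (SE, edgeR adjusted p = 7.48e-05). Gpat3, which carries out the same reaction, fell from 577 to 358 CPM in replicate 1 and from 341 to 267 CPM in replicate 2, with -0.38 ± 0.099 on the log2 scale (SE, edgeR adjusted p = 0.025), and single libraries gave -0.60 in replicate 1 and -0.20 in replicate 2. The other lower gene was Pck1, described above. Of 16 tested genes of lipolysis and its control, 0 were higher and 1 lower, namely the adenylyl cyclase Adcy5 with -0.88 ± 0.23 on the log2 scale (SE, edgeR adjusted p = 0.027, -1.58 in replicate 1 and -0.70 in replicate 2). Of 12 genes of fatty acid uptake and binding, 1 was higher and 2 were lower. Fabp5, a fatty acid binding protein, rose from 38.3 to 87.0 CPM in replicate 1 and from 38.9 to 56.7 CPM in replicate 2, with 0.91 ± 0.15 on the log2 scale (SE, edgeR adjusted p = 0.00024). At equal depth its fold change was 0.56 (edgeR adjusted p = 0.0157). Lpl, the lipase that frees fatty acids from circulating lipoproteins for uptake, fell from 5774 to 4321 CPM in replicate 1 and from 2509.8 to 1768 CPM in replicate 2, with -0.34 ± 0.094 on the log2 scale (SE, edgeR adjusted p = 0.0432), and Apoe gave -0.49 (edgeR adjusted p = 0.00198). Lpl and Lipg, both of them lipases that act on lipoproteins, thus moved in opposite directions along the ranking.

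The lists of signalling and identity genes stand beside the 2.45% of all genes that were called in either direction. Of 17 genes of insulin signalling, edgeR called 0 and DESeq2 called 0, while 4 were higher and 2 lower at an unadjusted p under 0.05, a threshold that 2015 of all 15288 genes passed in either direction. Irs2, an adaptor of the insulin receptor, had 39.0 and 6.93 CPM in replicate 1 and 18.8 and 12.7 CPM in replicate 2 (edgeR adjusted p = 0.0587), and at equal depth it passed (edgeR adjusted p = 0.0256). Of 14 adipocyte transcription factors, 0 were higher and 1 lower, Zbtb16 with -0.45 ± 0.10 on the log2 scale (SE, edgeR adjusted p = 0.0114, -0.22 in replicate 1 and -0.57 in replicate 2). Pparg had 0.13 ± 0.084 on the log2 scale (SE, edgeR adjusted p = 0.522). Of 15 tested genes of fatty acid oxidation and thermogenesis, 1 was higher and 0 lower, namely Hadha, an enzyme of mitochondrial beta oxidation, with 0.42 ± 0.12 (SE, edgeR adjusted p = 0.0407, 0.70 in replicate 1 and 0.27 in replicate 2), which did not pass at equal depth (edgeR adjusted p = 0.385). Of 15 adipokines and secreted proteins, 0 were higher and 1 lower, Nnat, and Adipoq, adiponectin, had 1053 and 715 CPM and 373 and 292 CPM (edgeR adjusted p = 0.0535). Of 13 tested stress and immediate early genes, 0 were higher and 1 lower, Txnip, a glucose-responsive thioredoxin inhibitor, with -0.36 ± 0.099 on the log2 scale (SE, edgeR adjusted p = 0.0432). Of 8 genes by which the study described adipocytes and their subtypes, 2 were higher, Acacb and the adiponectin receptor Adipor2 with 0.33 (edgeR adjusted p = 0.0318), and 0 lower. With plain library totals edgeR called 1 of the 8 higher and 2 lower, and at equal depth 1 higher. This list was chosen on these samples among others and is not independent of them.

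RNA that is not the nucleus's own was followed by lists of genes. Of 6 transcripts abundant in fat, chosen to follow free adipocyte RNA, 0 were higher and 3 lower, Gsn with -0.62 ± 0.09, Car3 with -0.47 ± 0.087 and Apoe with -0.49 ± 0.098 on the log2 scale (SE, edgeR adjusted p = 3.57e-05, 0.000795 and 0.00198). Their summed level went from 16892 to 13668 CPM in replicate 1 and from 8473 to 6244 CPM in replicate 2, with Car3 as the gene with the most UMIs. The odorant and vomeronasal receptor genes, 1385 genes not known to act in fat and chosen as a measure after their values were seen, had 933, 633 and 463 CPM in the low, middle and lipogenesis-high nuclei of replicate 1 and 796, 465 and 346 CPM in those of replicate 2. At equal depth the middle and lipogenesis-high classes had 630.1 and 512 CPM in replicate 1 and 488 and 405 CPM in replicate 2. These receptor genes thus had a smaller share towards the top of the ranking in both settings, and the part of free RNA in the lower genes was not tested.

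Of the markers of 5 other cell types, 1 gene was called, and the counts at an unadjusted p under 0.05 stand beside 2015 of all 15288 genes. However, all 10 progenitor, all 7 endothelial and all 9 immune markers tested had a negative log2 fold change, with medians of -0.56, -0.56 and -0.48. Of 10 progenitor markers, 0 were higher and 1 lower, Dcn with -0.58 ± 0.10 on the log2 scale (SE, edgeR adjusted p = 0.000691), with 6 lower at an unadjusted p under 0.05, and their summed level went from 545 to 366 CPM in replicate 1 and from 249 to 153 CPM in replicate 2. Dcn was also the progenitor marker with the most UMIs, at 183 and 72.6 CPM in lipogenesis-high nuclei. Among 7 tested endothelial markers, 0 were called in edgeR (1 lower at an unadjusted p under 0.05, 0 in DESeq2), with a summed level from 52.8 to 32.1 CPM in replicate 1 and from 45.5 to 26.9 CPM in replicate 2 and Flt1 as the most abundant at 15.1 and 10.4 CPM. Among 9 tested immune markers, 0 were called in edgeR (4 lower at an unadjusted p under 0.05, 0 in DESeq2), with a summed level from 269 to 211 CPM in replicate 1 and from 187 to 131 CPM in replicate 2 and Rbpj as the most abundant at 81.3 and 76.7 CPM. Mesothelial markers, 8 tested and 0 called in edgeR (0 at an unadjusted p under 0.05, 0 in DESeq2), went from 471 to 475 CPM in replicate 1 and from 578 to 564 CPM in replicate 2, but most of this was Efna5, which went from 411 to 432 CPM and from 529 to 525 CPM. Mural markers, 10 tested and 0 called in edgeR (1 higher and 2 lower at an unadjusted p under 0.05, 0 in DESeq2), went from 188 to 202 CPM in replicate 1 and from 199 to 197 CPM in replicate 2, with Cspg4 as the most abundant, from 81.5 to 93.3 CPM and from 109 to 122 CPM. The median log2 fold change was -0.35 for the mural markers, 7 of the 10 being negative, and -0.17 for the mesothelial markers. None of the markers of these 5 lists was at 0 UMIs in lipogenesis-high nuclei of both libraries. At equal depth the medians were -0.35 for progenitor, -0.33 for endothelial, -0.25 for immune, -0.42 for mural and -0.20 for mesothelial markers, and the progenitor markers went from 537 to 407 CPM in replicate 1 and from 238 to 170.2 CPM in replicate 2. Genes of other cells outside these lists were not counted. The part of these cells in the result, the 12 largest falls included, was not tested.

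At equal depth the called genes kept their direction. All 375 genes had the same sign, as did 12151 of all 15288 genes, and the rankings share most of their nuclei. Of the called genes, 163 of the 238 higher and 61 of the 137 lower genes passed again, with median log2 fold changes of 0.42 and -0.54 in place of 0.53 and -0.76. Lower genes thus lost more of their calls than higher ones. Of the lipogenesis-high nuclei, 85.0% in replicate 1 and 76.3% in replicate 2 were in the upper class of both rankings. In this setting the classes differed in the mitochondrial share, with medians of 5.02% and 4.38% in the middle and lipogenesis-high nuclei of replicate 1 and 0.305% and 0.261% in those of replicate 2. With all nuclei, the medians of these classes in replicate 1 were close, at 4.74% and 4.71%. The part of the mitochondrial share in the result was not tested.

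**Figure D5:**
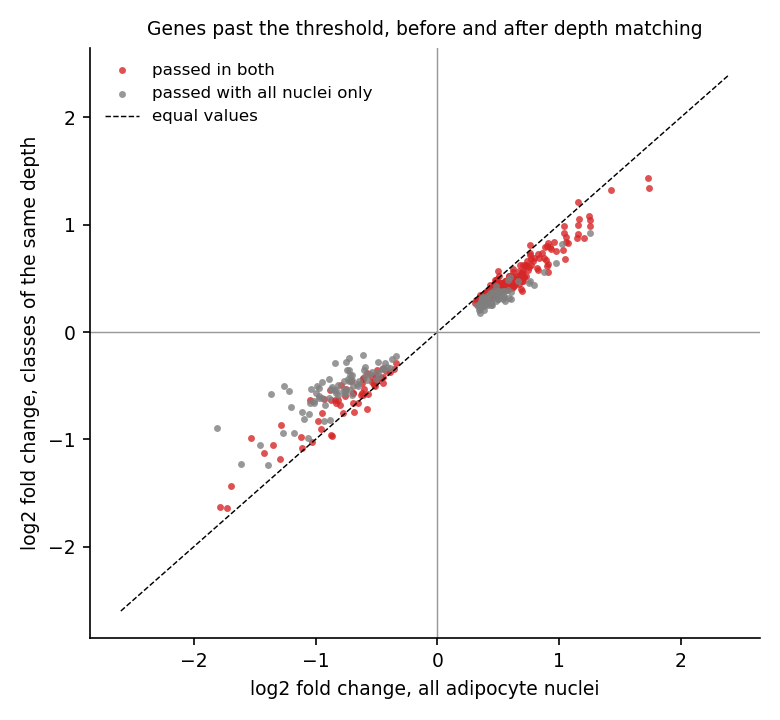
Log2 fold change of the 375 genes that passed the test with all adipocyte nuclei (x axis) and in classes of equal depth (y axis), lipogenesis-high minus middle in both. Red points passed in both, grey points only with all nuclei, and the dashed line marks equal values. All points keep their sign, and most lie closer to 0 at equal depth.

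The comparison rests on 2 mice with 1 library each, so that differences between animals beyond these were not measured. The class is a cut by rank, so that it has the same relative size in any library, and enzyme activity, lipid synthesis and RNA outside the nucleus were not measured. All genes were read in the same nuclei that the ranking sorted, and a gain of 1 gene in a total lowers the share of others. Depth, mitochondrial share and RNA of other cells differed along the ranking, and only depth was matched. A gene that did not pass may still differ by an amount too small to detect here.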

How the data were processed

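Single nuclei of the gonadal fat of 2 female mice were measured in 1 library each. The authors aligned reads to GRCm39 with CeleScope and deposited counts, whole UMIs of 56980 genes in each called nucleus, without normalization; the versions of CeleScope and of the annotation and the handling of introns are not stated. Members and gene lists were chosen with earlier results of these data known.

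UMIs were summed per library and class into 6 sums, which makes the mouse the unit of replication. The sums were tested in R 4.3.3 with edgeR 4.0.16 (filterByExpr, TMM, glmQLFit, glmQLFTest, library as a block because the classes of a library come from 1 mouse), with Benjamini-Hochberg adjustment over all genes tested and a threshold of 0.05. Genes of the rule and the gate stayed in the totals and were not tested, except that each lipogenic gene was tested in classes ranked without it. The test was tried on simulated data. Tables and figures were made under Python 3.11.15 with numpy 2.4.6, scipy 1.17.1, pandas 2.3.3 and matplotlib 3.10.9, with a random seed of 1.

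Named are the genes of the rule and gate, up to 6 passing members of each list by p, members needed to say that they did not pass, and the 12 largest fold changes each way among passing genes with a name, the same direction in both libraries and at least 50 UMIs over both classes in each library. Fads2, Hk2, Taldo1, Slc2a3, Hmgcs1, Pmvk, Odad4 and Gm17530 fall outside this rule and were named after their values were seen. Some genes that passed and fall under the rule are left out of the text and figures, but stay in all counts. The lists are other de novo lipogenesis enzymes, lipogenic regulators, NADPH and glucose use, insulin signalling, triglyceride synthesis, lipolysis and its control, fatty acid uptake and binding, cholesterol synthesis and uptake, fatty acid oxidation and thermogenesis, adipocyte transcription factors, adipokines and secreted proteins, stress and immediate early genes, adipocyte and subtype genes of the study, transcripts abundant in fat, and mesothelial, progenitor, endothelial, immune and mural markers.

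Alternatives were DESeq2 1.42.0, no filter on low counts, no library block, a fit without the low class, totals without the lipogenic and mitochondrial genes, ranking of nuclei thinned to 1000 UMIs, classes of equal depth (formed within 10 bands of UMIs), the top 10% as the upper class, a mitochondrial limit of 5%, a gate with at least 20 adipocyte and 0 other UMIs, removal of nuclei above the 95th percentile of UMIs, and each library alone. Plain library totals were added after the data had been seen.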

Additional observations from a re-analysis of the deposited data

How the results depend on the processing

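None of the 375 genes that passed had the opposite sign in any of the 12 alternatives with a test. Their number moved most without the library block, where edgeR called 0 genes (245 at an unadjusted p under 0.05, and DESeq2 with the block called 180), 0 of the 6 left-out genes and 0 of the 64 named genes. This model takes the differences between the mice as spread within the classes. It was 706 with the middle and lipogenesis-high classes alone, 173 with a mitochondrial limit of 5% and 154 with the stricter gate. Of the 64 named genes that passed, 37 passed in DESeq2, which gave some genes with few UMIs no adjusted p, 42 with the limit of 5% and 37 with the stricter gate. The limit of 5% left 181 lipogenesis-high nuclei in replicate 1. The cause of the other changes was not tested. In the other 7 alternatives the number was between 258 (equal depth) and 514 (plain library totals). Of the 375 genes, 224 were called at equal depth and 272 with plain totals.

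Acaca, Acly, Elovl6, Acss2 and Me1, each left out of the ranking, passed in 11 of 12 alternatives. Fasn passed in 2, with the middle and lipogenesis-high classes alone (edgeR adjusted p = 0.00144) and with the top 10% (edgeR adjusted p = 0.0499), in a range from 0.00144 to 1. Srebf1 changed sign with plain totals (-0.0649), with the top 10% (-0.0716) and with the limit of 5% (-0.005156), and passed in none. Of the genes named as not passing, Irs2 passed in 6 of 11 alternatives, Adipoq in 5, Slc2a4 in 2, Thrsp in 1 and Pparg in 0 of 12. Of those that passed, Taldo1 and Hadha did so in 2 alternatives, Pmvk and Slc2a3 in 3, Inhbb in 4 and Sparcl1 in 5. Cyp2f2 passed in 6 of 11, and Hk2, Gpat3, Txnip and Adipor2 in 6 of 12. Gm17530 did not pass with the stricter gate (edgeR adjusted p = 0.119).

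Each library alone gives values with no test, so the number of calls has no value without a library. The left-out genes ranged from 0.23 to 0.89 on the log2 scale without 1 library, all above 0. With 2 mice, small differences and those of genes with few UMIs can be missed.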
